A study of Mus musculus with 6 samples.

Results

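The S100 genes code for small proteins of a calcium-binding family, and 9 of them were followed in naive, rejecting, and tolerized mouse kidneys: S100a1, S100a4, S100a6, S100a8, S100a9, S100a10, S100a11, S100a13, and S100g. They were listed by symbol, with earlier results of these data known, although the rule itself uses no measured value, and all 9 were found among the 28208 genes that were listed for every kidney. Each was followed per kidney across myeloid, lymphoid, tubular, and stromal cells.

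S100 proteins are built around a pair of EF-hand loops, which bind calcium in most of them. Most act by docking onto a partner protein once calcium is bound. S100A8 and S100A9 form calprotectin, the main cytosolic protein complex of neutrophils, which is also released and engages TLR4. S100G, or calbindin-D9k, buffers calcium inside the cells of the distal nephron that reabsorb it, and S100A10 is the light chain of the annexin A2 complex at the plasma membrane.

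Cells of 6 kidneys were dissociated and sequenced as single cells, with 2 kidneys in each group. Naive kidneys were untransplanted kidneys of wild-type male C57BL/6 (B6) mice aged 10 to 12 weeks. Rejecting kidneys were BALB/c kidneys placed in male B6 mice that had lost their own kidneys, labelled with an age of 6 to 7 weeks and taken on day 15 after transplantation with no further treatment. Tolerized kidneys were made and taken in the same way, except that the B6 recipient was also infused with BALB/c splenocytes fixed with ethylenecarbodiimide (ECDI), a procedure that induces tolerance to the donor. Kidney cells of transplanted kidneys are those of the donor, and the counts do not separate leukocytes of the donor from those of the recipient. Strain, age, and the list of counted genes all differ between naive and transplanted kidneys, and their parts in any difference from naive kidneys cannot be told apart from that of transplantation. The study gives its BALB/c donors as male or female without saying which gave these kidneys, so that the sex of the kidney may differ too. The labels number the kidneys of a group without saying whether they came from separate animals, so that p values measure only the spread between these samples.

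Of the 9 genes, 8 lie on chromosome 3, between bases 90511034 and 93564643 of GRCm38, and S100g lies on chromosome X from 162961992 to 162964599. S100a8 (3, 90668978 to 90670035, plus strand) and S100a9 (3, 90692632 to 90695721, minus strand) are neighbors in this list, as are S100a4 (3, 90603771 to 90606045) and S100a6 (3, 90612882 to 90624181), both on the plus strand. S100a1 and S100a13 are transcribed away from each other from RefSeq starts 105 bases apart, so that they share 1 promoter region. RefSeq promoters of GRCm38.p6 were found for 8 members, and S100a10 is named here without a sequence. The stretch from 120 bases before to 20 bases after the annotated start was searched for the TATA box letters TATAAA, and the windows are shown for S100a8 and S100a9, which were found almost only in neutrophil-like cells, for S100g, which was found in the distal nephron, and for the neighbors S100a4 and S100a6, which both rose in tubular cells of rejecting kidneys. Each is written 5′ to 3′ on the strand of its gene, in lower case with TATAAA in capitals, for chr3:90668951-90669090 (plus strand), chr3:90695702-90695841 (minus strand), chrX:162964580-162964719 (minus strand), chr3:90603650-90603789 (plus strand), and chr3:90612774-90612913 (plus strand), in that order.
S100a8: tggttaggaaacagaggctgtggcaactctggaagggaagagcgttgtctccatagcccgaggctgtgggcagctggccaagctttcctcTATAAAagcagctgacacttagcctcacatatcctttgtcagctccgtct
S100a9: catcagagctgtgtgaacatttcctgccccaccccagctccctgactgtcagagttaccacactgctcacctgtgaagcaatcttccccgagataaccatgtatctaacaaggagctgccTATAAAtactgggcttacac
S100g: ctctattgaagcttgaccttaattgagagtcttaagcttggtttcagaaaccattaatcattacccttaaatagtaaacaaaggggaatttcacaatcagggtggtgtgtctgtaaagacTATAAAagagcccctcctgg
S100a4: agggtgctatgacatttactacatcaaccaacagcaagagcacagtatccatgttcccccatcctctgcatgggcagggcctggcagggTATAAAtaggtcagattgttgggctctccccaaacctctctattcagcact
S100a6: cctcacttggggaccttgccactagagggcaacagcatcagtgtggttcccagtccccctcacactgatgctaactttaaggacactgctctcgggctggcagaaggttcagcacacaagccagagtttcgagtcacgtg

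The TATAAA letters began 30 bases before the annotated start in S100a8 and 31 bases before it in S100a4. In S100a9 and S100g they began 0 bases before the annotated start, that is, on the first annotated base. The windows of S100a1, S100a6, S100a11, and S100a13 held no TATAAA on the strand of the gene. Of all 32851 RefSeq promoters searched over the same 140 bases, 4.51% held these letters on the strand of the gene and 6.88% on either strand. The AP-1 letters TGANTCA, which read the same on both strands, were found in S100a11 alone among the 8 windows and in 3.91% of all promoters.

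Depth was 34874702 to 41562534 UMIs (unique molecular identifiers, each 1 counted RNA molecule) for naive kidneys, 48111410 to 56837038 for rejecting kidneys, and 94316013 to 96803926 for tolerized kidneys, and 45667 cells passed the quality limits and the removal of doublets. The naive kidneys shared 111 cell barcodes, each pair of transplanted kidneys shared 18 to 35, and a naive and a transplanted kidney shared at most 4. This pattern also divides naive from transplanted kidneys. Its source is not given, and its part in any difference from naive kidneys cannot be told apart from that of transplantation. Cells were assigned to classes by clustering and marker lists without any S100 gene, and class names carry the ending "-like". Proximal tubule-like cells of naive kidneys lay mostly in clusters 0, 4, 12, 17, and 36 and those of transplanted kidneys in clusters 5, 6, 8, 14, 16, and 23, and distal tubule-like cells were divided in the same way between cluster 15 and clusters 18 and 20. Of the endothelium-like clusters, cluster 22 held 104 and 90 cells of naive, 113 and 48 of rejecting, and 206 and 220 of tolerized kidneys, whereas cluster 30 held 162 and 148 cells of naive kidneys and 4 cells of a single transplanted kidney, tolerized kidney 2. The clusters numbered 2 (T cell-like), 6 (proximal tubule-like), and 18 (distal tubule-like) came mostly from rejecting kidney 1, which had 2098, 1823, and 511 of their cells. Their cells had median UMIs of 0.39, 0.7, and 0.27 times the median of their kidney. Of these cells, 14%, 11%, and 23.1% were called doublets and left out. Cluster 2 had a median of 18.5% mitochondrial UMIs, against 4.7% to 5.9% in the other T cell-like clusters. No alternative left out cluster 6. Naive kidneys held few immune cells, and immune classes were compared between tolerized and rejecting kidneys only. Some classes still reached 20 cells in both naive kidneys. These were macrophage-like (37 and 98), Chil3 monocyte-like (32 and 25), T cell-like (32 and 40), and B cell-like cells (29 and 78). They were not tested against transplanted kidneys.

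Levels are given as CPM, the UMIs of a gene in 1 class of 1 kidney per 1000000 UMIs of that class and kidney, scaled with edgeR's TMM factors where a class was tested and called raw CPM elsewhere. In such sums, fewer cells that express a gene and less of its RNA in each cell cannot be told apart. Within the 4 transplanted kidneys, each gene had its own order over 15 classes that held at least 20 cells in each of these kidneys. Cycling cells, which mix several types, also held that many but were left out of this order. S100a8 and S100a9 were at mean levels of 37098 and 50530 CPM in neutrophil-like cells, and the next classes were macrophage-like cells for S100a8 (12.1 CPM) and distal tubule-like cells for S100a9 (7.90 CPM). S100g stood high in principal cell-like (mean 14973 CPM), distal tubule-like (9865 CPM), and intercalated cell-like cells (5802 CPM), whose ranges over kidneys overlapped from each class to the next, and intercalated cell-like cells were clear of every class below them. S100a1 was highest in intercalated cell-like cells at 2176 CPM, above the range of distal tubule-like (1188 CPM) and principal cell-like cells (1156 CPM), which overlapped each other. S100a4 peaked in Chil3 monocyte-like cells at 1572 CPM and conventional DC-like cells at 1511 CPM, with T cell-like cells at 1041 CPM and every neighbor in this order overlapping the next. S100a6 peaked in neutrophil-like cells at 4181 CPM, followed by Chil3 monocyte-like, T cell-like, and endothelium-like cells at 2486, 1995, and 1944 CPM, again with overlapping ranges. S100a10 was highest in T cell-like (1018 CPM), NK cell-like (984 CPM), and endothelium-like cells (827 CPM), which overlapped. S100a11 in neutrophil-like cells (3399 CPM) and S100a13 in endothelium-like cells (514 CPM) were clear of their next classes, which were conventional DC-like (680 CPM) and NK cell-like cells (256 CPM). Mast cell or basophil-like cells are not in this order, because tolerized kidney 2 held 4 of them, but S100a10 was at 1550.2, 1342, and 1306 raw CPM and S100a11 at 1199, 984, and 973 raw CPM in those of the other 3 transplanted kidneys, above the T cell-like mean of S100a10 and the conventional DC-like mean of S100a11. Since the classes were set by the same cells, these levels are a description.

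**Figure D1:**
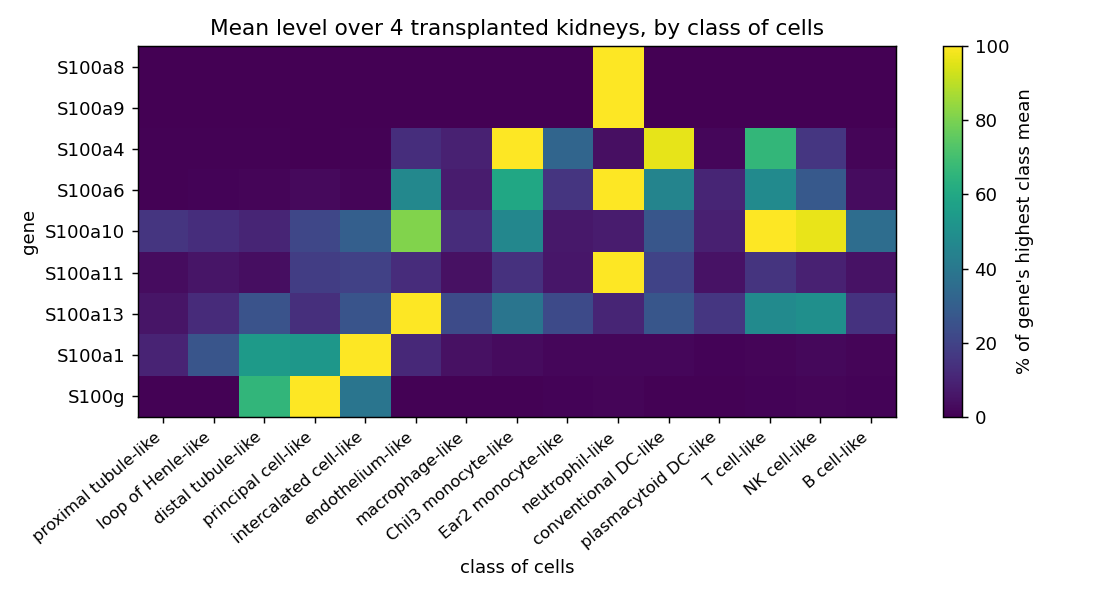
Mean level of each S100 gene over the 4 transplanted kidneys (rows) in 15 classes of cells (columns), as a percentage of the gene's highest class mean in CPM. S100a8 and S100a9 fill a single column, neutrophil-like cells, S100a1 and S100g sit in the distal nephron classes, and S100a4, S100a6, and S100a10 spread over several immune classes and endothelium-like cells.

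The first comparison asked which S100 genes differ between tolerized and rejecting kidneys within a class of immune cells. Each pair of a gene and a class was tested with edgeR's quasi-likelihood test on UMIs summed per kidney, with the p values adjusted over all genes of the class to a false discovery rate (FDR) that was called below 0.05. Of 81 possible pairs of an S100 gene and an immune class, 63 passed the filter on low counts. None of these was called, against 0.0743% of all pairs of a gene and a class, and the lowest FDR was 0.248. At an unadjusted p under 0.05 there were 22 such pairs, against 6.88% of all pairs, and DESeq2 called 2 pairs, both of S100a4. As a description, the median log2 difference (tolerized minus rejecting) over the 63 pairs was 0.47, whereas the medians over all genes ranged from -0.01 to 0.01 between classes. The 63 pairs include S100g, which leukocytes should lack, at 0.61 in NK cell-like to 2.15 in neutrophil-like cells. Among the 22 pairs were those of S100g in B cell-like, Chil3 monocyte-like, Ear2 monocyte-like, T cell-like, and neutrophil-like cells (p 0.0134 to 0.0445 in the edgeR test). They also held S100a4 in T cell-like, NK cell-like, macrophage-like, conventional DC-like, and both monocyte-like classes (p 0.000175 to 0.0356 in the edgeR test). The other pairs came from the remaining members, and the median without S100g was not computed. In the 6 kidney classes, where 42 of 54 pairs passed the filter, 1 pair was called (2.38%), against 0.129% of all pairs. Compared with naive kidneys, rejecting kidneys had 13 of 42 pairs called (31%), 8 higher and 5 lower, against 22.2% of all pairs, and tolerized kidneys had 8 of 42 called (19%), 3 higher and 5 lower, against 17% of all pairs. Both shares against naive kidneys are near the background, and the same naive kidneys served both comparisons. The median log2 differences over the members were -0.08 and -0.06, and that between tolerized and rejecting kidneys was -0.12. A p that misses the threshold does not show that levels were alike, and with 2 kidneys per group only differences well above the spread between kidneys can pass.

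S100a8 and S100a9, the calprotectin subunits, were found almost only in neutrophil-like cells of transplanted kidneys. The rejecting kidneys had 43 and 38 of these cells, the tolerized kidneys had 36 and 35, and the naive kidneys had 0, and a count of 0 allows up to 3 cells. They held 87.2% to 96.6% of the S100a8 UMIs and 90.8% to 97.4% of the S100a9 UMIs of a transplanted kidney. Over all cells of the naive kidneys, S100a8 had 29 and 26 UMIs and S100a9 had 14 and 36. The neutrophil-like cluster showed 6 of its 10 markers, among them Csf3r, Cxcr2, and Mmp9.

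Within neutrophil-like cells, S100a8 was at 19816 and 28056 CPM in rejecting kidneys and at 58365 and 42156 CPM in tolerized kidneys. S100a9 was at 25561 and 42214 CPM in rejecting kidneys and at 72796 and 61551 CPM in tolerized kidneys. Both tolerized kidneys were above both rejecting kidneys for each gene. The log2 difference was 0.99 (SE 0.33) for S100a8 and 0.91 (SE 0.34) for S100a9, and neither passed the edgeR test (FDR 0.333 and 0.374). S100a6, whose protein binds annexins and calcyclin-binding protein, was at 2453 and 2178 CPM in the same cells of rejecting kidneys and at 6875 and 5218 CPM in those of tolerized kidneys (log2 difference 1.30, SE 0.34, FDR 0.299 in the edgeR test). For S100a11, another annexin partner, the levels were 2066 and 2600.1 CPM and 5226 and 3705 CPM (0.86, SE 0.35, FDR 0.389 in the edgeR test). All 4 genes thus had both tolerized kidneys above both rejecting kidneys. So did S100g, which leukocytes should lack, at 113 and 40.8 CPM in rejecting and 151 and 548 CPM in tolerized kidneys (log2 2.15). Of the 1245 genes tested in this class, 154 had an unadjusted p under 0.05 in the edgeR test. The share of all genes with the groups apart was not counted. The class held few cells, and in rejecting kidney 2 a single cell gave 942 of the 2061 S100a8 UMIs. Median depth per cell was 1317 and 1318.5 UMIs for rejecting kidneys against 2340.0 and 3027 UMIs for tolerized kidneys, and the part of depth was not tested.

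**Figure D2:**
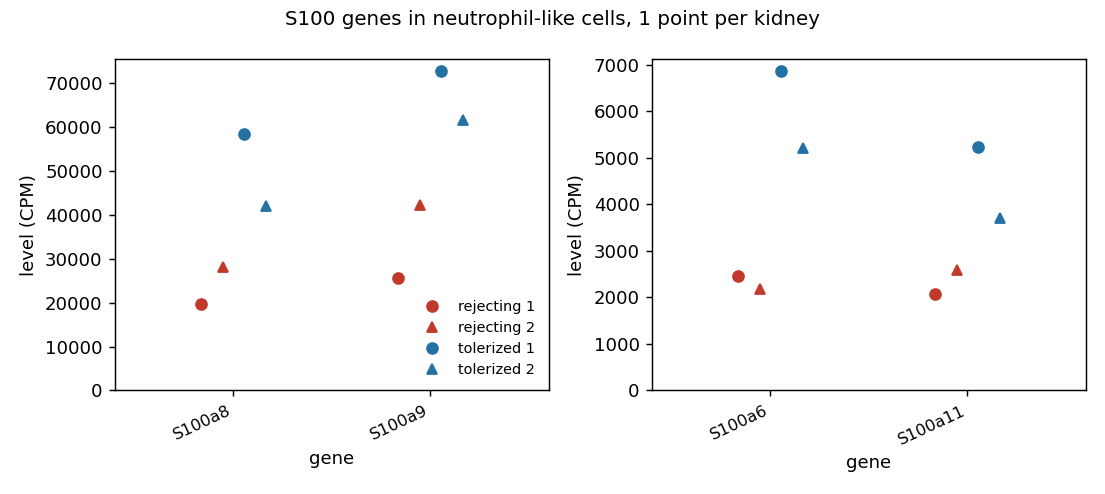
Levels of S100a8 and S100a9 (left) and of S100a6 and S100a11 (right) in neutrophil-like cells, in CPM, with 1 point for each transplanted kidney. In each of the 4 genes the tolerized kidneys (blue) lie above the rejecting kidneys (red), and none of these differences passed the FDR of 0.05.

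Outside neutrophil-like cells, the calprotectin genes were near 0 and often rested on single cells. In macrophage-like cells S100a8 was at 7.13 and 6.90 CPM in rejecting kidneys and at 16.4 and 17.8 CPM in tolerized kidneys, with a log2 difference of 1.28 (SE 0.21) and an FDR of 0.605 in the edgeR test. In tolerized kidney 1, however, 1 macrophage-like cell held 207 of the 241 S100a8 UMIs and 178 of the 189 S100a9 UMIs. In the distal tubule-like cells of tolerized kidney 2, 1 cell held 127 of the 135 S100a9 UMIs. Naive macrophage-like cells had 0 UMIs of both genes. S100a8 also had 0 UMIs in conventional DC-like and plasmacytoid DC-like cells of all transplanted kidneys, where a count of 0 allows up to 3 UMIs per library.

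S100a4, which binds non-muscle myosin and is abundant in motile leukocytes and fibroblasts, was higher in both tolerized kidneys than in both rejecting kidneys in 6 of the 7 immune classes in which it was tested. In Chil3 monocyte-like cells, which carry the classical monocyte genes Ly6c2 and Ccr2, it was at 619 and 1326 CPM in rejecting kidneys and at 2312 and 2032 CPM in tolerized kidneys. In Ear2 monocyte-like cells, which carry the non-classical monocyte genes Ace and Spn, it was at 247 and 340.0 CPM and at 784 and 670.5 CPM. The groups did not overlap in either class, and the log2 differences were 1.16 (SE 0.32) and 1.31 (SE 0.26), with FDRs of 0.481 and 0.426 in the edgeR test. The share of all genes with the groups apart in the 6 classes was not counted, and the same kidneys recur in each of them.

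The levels of S100a4 in macrophage-like cells were 58.8 and 82.4 CPM in rejecting kidneys and 244 and 192 CPM in tolerized kidneys. In conventional DC-like cells they were 696 and 1222 CPM and 1917 and 2210.0 CPM. The groups were again apart, with log2 differences of 1.63 (SE 0.23, FDR 0.495 in the edgeR test) and 1.11 (SE 0.29, FDR 0.248 in the edgeR test), and the latter FDR was the lowest of any S100 gene in an immune class. DESeq2 called S100a4 higher in macrophage-like cells (log2 1.63, FDR 1.96e-07) and in Ear2 monocyte-like cells (1.31, FDR 0.0102).

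Lymphocytes were divided in S100a4. T cell-like cells were at 389 and 1017 CPM in rejecting kidneys and at 1423 and 1336 CPM in tolerized kidneys, and NK cell-like cells at 90.3 and 191 CPM and at 303 and 417 CPM. These groups did not overlap either, with log2 differences of 0.97 (SE 0.39, FDR 0.528 in the edgeR test) and 1.32 (SE 0.35, FDR 0.618 in the edgeR test). B cell-like cells were low, at 39.1 and 9.70 CPM in rejecting kidneys and at 7.57 and 24.4 CPM in tolerized kidneys, and the groups overlapped (-0.67, SE 0.67). In the 2 other immune classes S100a4 did not pass the filter on low counts, and its levels there were lower in tolerized kidneys. They were 80.7 and 81.7 CPM in rejecting against 12.6 and 75.6 CPM in tolerized kidneys for neutrophil-like cells (5, 6, 1, and 8 UMIs), and 31.4 and 70.1 CPM against 5.71 and 14.4 CPM for plasmacytoid DC-like cells (6, 14, 1, and 3 UMIs). Without cluster 2, the T cell-like cells found mostly in rejecting kidney 1, the difference in T cell-like cells was 0.90 with an FDR of 0.504 in the edgeR test.

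Rejecting kidney 1 was the lowest in S100a4 in all 6 of these classes. Without rejecting kidney 2, edgeR called all 6 differences, with log2 values of 1.56 to 2.02, and FDRs from 5.78e-15 in Chil3 monocyte-like cells to 0.0409 in macrophage-like cells, on the assumption that the lone rejecting kidney varies like the tolerized ones. Without rejecting kidney 1 the values were 0.43 to 1.41 and none was called. Without tolerized kidney 1, the difference in conventional DC-like cells was called as well (1.20, FDR 0.0416 in the edgeR test). Cells of tolerized kidneys were the more deeply counted, with median UMIs per macrophage-like cell of 14741 and 12472 against 8657 and 8608 in rejecting kidneys, and median UMIs per T cell-like cell of 4589 and 4757 against 1259 and 2693. The part of this depth in the S100a4 levels was not tested.

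**Figure D3:**
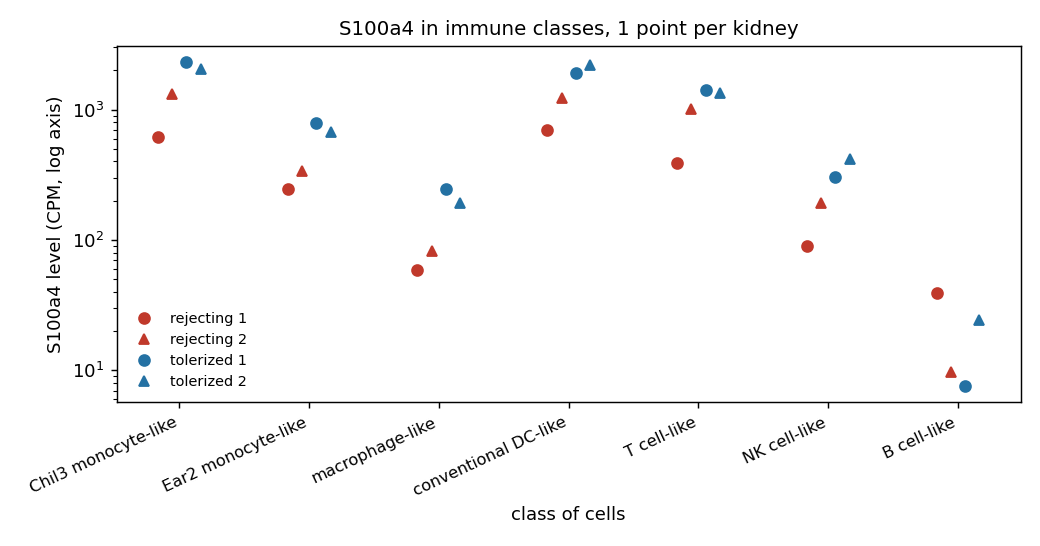
Level of S100a4 in CPM on a log axis in 7 immune classes, with 1 point for each transplanted kidney. In 6 classes both tolerized kidneys (blue) lie above both rejecting kidneys (red), and in B cell-like cells the groups overlap. All 7 classes share the same kidneys.

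S100a6 rose in all 5 tubular classes of rejecting kidneys compared with naive kidneys, starting from a few UMIs. In proximal tubule-like cells it was at 0.456 and 3.36 CPM in naive kidneys, at 88.6 and 11.2 CPM in rejecting kidneys, and at 6.94 and 5.38 CPM in tolerized kidneys. In loop of Henle-like cells the levels were 0.806 and 1.46 CPM, then 141 and 19.5 CPM, then 19.0 and 13.1 CPM in the same order of groups. In distal tubule-like cells they were 1.62 and 3.29 CPM, 188 and 18.7 CPM, and 8.71 and 9.77 CPM. In all 3 classes both rejecting kidneys were above both naive kidneys, and rejecting kidney 1 stood far above rejecting kidney 2, which was close to the tolerized kidneys.

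In the collecting duct the order of the rejecting kidneys was reversed in principal cell-like cells but not in intercalated cell-like cells. Principal cell-like cells had 1.42 and 1.94 CPM of S100a6 in naive, 102 and 253 CPM in rejecting, and 36.8 and 5.78 CPM in tolerized kidneys. Intercalated cell-like cells had 7.06 and 0 CPM in naive, 87.0 and 55.2 CPM in rejecting, and 61.7 and 22.4 CPM in tolerized kidneys. Both transplanted groups were above the naive kidneys, as in the other tubular classes. The rejecting kidneys were also above the tolerized ones in principal cell-like cells, whereas these groups overlapped in intercalated cell-like cells.

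The log2 difference between rejecting and naive kidneys was 4.83 (SE 1.01, FDR 0.00661 in the edgeR test) in proximal tubule-like cells, where 41.5% of all genes were called. It was 6.21 (SE 1.19, FDR 0.00307 in the edgeR test) in loop of Henle-like cells, with 17.2% of genes called, and 5.46 (SE 1.03, FDR 0.00519 in the edgeR test) in distal tubule-like cells, with 23% called. In principal cell-like cells it was 6.73 (SE 0.82, FDR 4.62e-05 in the edgeR test), with 18.6% called, and in intercalated cell-like cells 3.89 (SE 0.74, FDR 0.00728 in the edgeR test), with 8.22% called. Since the naive kidneys together had 2 S100a6 UMIs in loop of Henle-like cells, the ratio of raw rates there, 82.6, had a 95% exact counting interval of 22.7 to 685. In proximal tubule-like cells, with 52 naive UMIs, the ratio was 50.5 (38.3 to 67.9), and in principal cell-like cells, with 7 naive UMIs, it was 125 (59.9 to 313). These intervals cover counting error only.

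Leaving out single kidneys moved these values. Without rejecting kidney 1, the log2 difference from naive kidneys was 2.63 in proximal tubule-like (FDR 0.0396), 4.19 in loop of Henle-like (FDR 0.00181), and 2.99 in distal tubule-like cells (FDR 0.00141), and each remained called by edgeR. Without naive kidney 1 the calls were lost in loop of Henle-like (5.76, FDR 0.0627) and distal tubule-like cells (4.93, FDR 0.061) in the edgeR test. The value in proximal tubule-like cells was 3.88 without naive kidney 1 (FDR 0.0462) and 6.76 without naive kidney 2 (FDR 0.0167), and that in intercalated cell-like cells was 8.65 without naive kidney 1 (FDR 0.0448), all called by edgeR. Without cluster 18 the value was 4.26 in distal tubule-like cells (FDR 0.000261 in the edgeR test). The call in loop of Henle-like cells was lost with at most 20% mitochondrial UMIs per cell (9.31, FDR 0.0991) and that in intercalated cell-like cells with doublets kept (2.53, FDR 0.15), whereas principal cell-like cells were called under every alternative.

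Tolerized kidneys exceeded naive kidneys in S100a6 in principal cell-like cells (log2 3.45, SE 0.98, FDR 0.0250 in the edgeR test, with 17.3% of genes called) and in intercalated cell-like cells (3.05, SE 0.76, FDR 0.0319 in the edgeR test, with 7.21% called). Intercalated cell-like values rested on few cells. In tolerized kidneys 1 and 2, 6 of 41 and 7 of 70 of these cells held S100a6. A single cell gave 32 of the 52 and 25 of the 31 UMIs. In rejecting kidneys 1 and 2, a single intercalated cell-like cell gave 23 of the 44 and 15 of the 24 UMIs. The values for the other tubular classes were 1.79 (SE 1.00), 3.87 (SE 1.47), and 1.99 (SE 1.24) in proximal tubule-like, loop of Henle-like, and distal tubule-like cells, and none passed. Both calls were lost without naive kidney 1 (3.28, FDR 0.147, and 7.83, FDR 0.103, in the edgeR test), without naive kidney 2 (3.71, FDR 0.141, and 2.47, FDR 0.17), without tolerized kidney 1 (1.75, FDR 0.15, and 2.23, FDR 0.119), and with at most 20% mitochondrial UMIs (3.67, FDR 0.0636, and 2.02, FDR 0.224). Without tolerized kidney 2 both remained called, at 4.40 and 3.65.

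The only S100 gene called between tolerized and rejecting kidneys in a kidney class was S100a6 in principal cell-like cells, where it was lower in tolerized kidneys by a log2 value of -3.27 (SE 0.56, FDR 0.0354 in the edgeR test), and 0.247% of the genes of that class were called. The call rested on few cells. In rejecting kidney 2, 1 of 69 principal cell-like cells held 168 of the 269 S100a6 UMIs and 3 cells held 91.5% of them, and 3 cells held 62.3% in rejecting kidney 1 and 73.4% in tolerized kidney 1. It was lost without rejecting kidney 2 (-2.41, FDR 0.229), without naive kidney 1 or 2 (-3.22 each, FDR 0.0626 and 0.0606), with at most 20% mitochondrial UMIs (-2.87, FDR 0.0735), and with DESeq2 (-3.09, FDR 0.323). It was -4.97 without tolerized kidney 1 (FDR 6.17e-05) and -2.31 without tolerized kidney 2 (FDR 0.0302), both called by edgeR. In the other tubular classes the tolerized minus rejecting values ran from -3.48 in distal tubule-like cells to -0.85 in intercalated cell-like cells, and none passed. Without rejecting kidney 2, edgeR called proximal tubule-like (-3.83, FDR 0.0347), loop of Henle-like (-3.17, FDR 1.94e-05), and distal tubule-like cells (-4.32, FDR 1.71e-06) too. Without rejecting kidney 1 these 3 values were -0.86, -0.29, and -1.0, none called, and without cluster 18 the one in distal tubule-like cells was called (-2.43, FDR 0.0402 in the edgeR test).

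RNA of leukocyte genes ranked the transplanted kidneys in the same order as S100a6 in proximal tubule-like and loop of Henle-like cells. In distal tubule-like cells the order was the same in raw CPM only, where tolerized kidneys 1 and 2 nearly tied in S100a6 (9.55 and 9.46 raw CPM). The orders differed in intercalated cell-like and principal cell-like cells. In the latter, rejecting kidney 2 had less leukocyte RNA but more S100a6 than rejecting kidney 1. The summed level of 6 leukocyte genes (Ptprc, Cd52, Coro1a, Tyrobp, Fcer1g, and Cd3e) in proximal tubule-like cells was 2.30 and 10.9 raw CPM in naive, 373 and 60.5 raw CPM in rejecting, and 43.3 and 24.9 raw CPM in tolerized kidneys, and none of the 6 was at 0 in a transplanted kidney, whereas 1 was at 0 in naive kidney 1. Per UMI of these genes, proximal tubule-like cells of transplanted kidneys held 0.173 to 0.274 S100a6 UMIs and T cell-like cells of the same kidneys held 0.245 to 0.298. This ratio was 0.0201 to 0.0334 in macrophage-like and 0.00696 to 0.0879 in B cell-like cells of transplanted kidneys. In the other tubular classes it was 0.165 to 0.424 for loop of Henle-like, 0.137 to 0.286 for distal tubule-like, 0.119 to 3.41 for principal cell-like, and 0.152 to 2.00 for intercalated cell-like cells. In rejecting kidney 1, S100a6 was at 49.7 to 179.5 raw CPM in each proximal tubule-like cluster, and B cell-like cells of that kidney stood at 424 CPM, whereas those of the other transplanted kidneys were at 53.8, 55.5, and 33.2 CPM (tolerized minus rejecting -2.38, FDR 0.315 in the edgeR test). Once every cell that held a UMI of the 6 genes was left out, S100a6 was still at 87.3 and 13.6 raw CPM in proximal tubule-like cells of the rejecting kidneys, and the log2 difference from naive kidneys was 4.69 (FDR 0.00282 in the edgeR test). That step kept 474 of 2809 and 826 of 1144 of these cells in the rejecting kidneys. In the naive kidneys it kept 4779 of 4822 and 3622 of 3766. In intercalated cell-like cells the call was lost by that step (5.64, FDR 0.0828 in the edgeR test). The step kept 8 of 49 and 19 of 31 of these cells in the rejecting kidneys, below the minimum set for a tested class. S100a6 was then at 0 and 22.7 raw CPM there and at 0 in both naive kidneys, so that the value rests on rejecting kidney 2. Of principal cell-like cells the step kept 6 of 48 and 37 of 69 in the rejecting kidneys, the former again below that minimum. S100a6 was at 101 and 158 raw CPM in them. The part of free leukocyte RNA in the remaining cells was not tested.

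**Figure D4:**
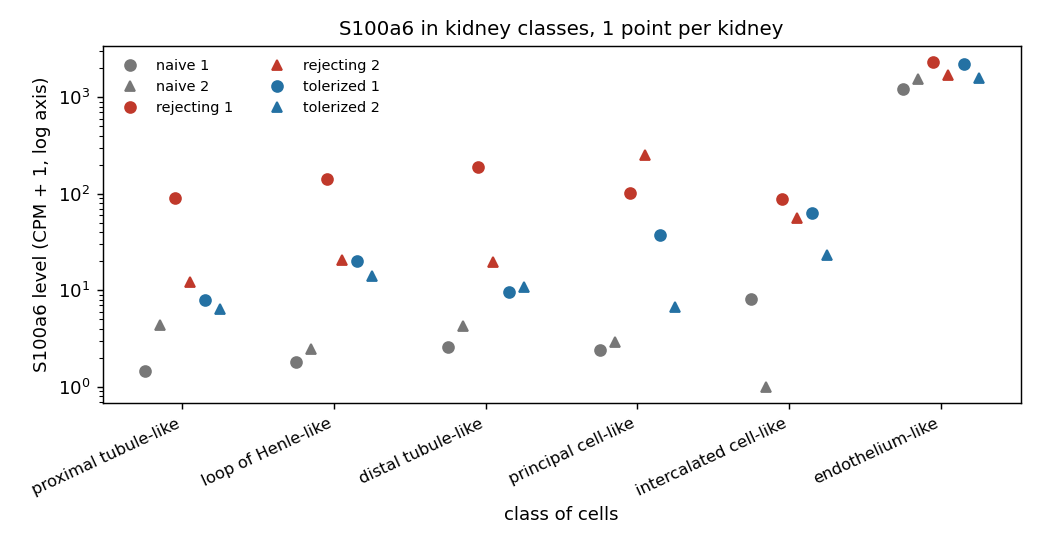
Level of S100a6 as CPM + 1 on a log axis in 5 tubular classes and endothelium-like cells, with 1 point for each kidney. Naive kidneys (gray) lie lowest in every tubular class, rejecting kidney 1 (red circle) stands out in the first 3 classes, and in endothelium-like cells all 6 kidneys lie between 1214 and 2308 CPM.

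Endothelium-like cells were a separate case, because S100a6 was abundant there without transplantation. The levels were 1214 and 1558 CPM in naive, 2308 and 1715 CPM in rejecting, and 2191 and 1565 CPM in tolerized kidneys. The log2 differences from naive kidneys were 0.53 (SE 0.27) for rejecting and 0.43 (SE 0.27) for tolerized kidneys, and neither passed. Cluster 30, almost wholly of naive kidneys, lowered the naive levels, with S100a6 at 724 and 704 raw CPM in its naive cells. In cluster 22, which all kidneys shared, S100a6 was at 1633 and 2176 raw CPM in naive, 2335 and 1741 raw CPM in rejecting, and 2271 and 1515 raw CPM in tolerized kidneys, and without cluster 30 the log2 differences were 0.02 (SE 0.28) and -0.07 (SE 0.28), so that the latter changed sign. In T cell-like cells S100a6 was at 1792 and 1552 CPM in rejecting and at 2499.5 and 2136 CPM in tolerized kidneys (log2 0.47, SE 0.24, FDR 0.603 in the edgeR test). In macrophage-like cells it was at 343 and 186 CPM and at 367 and 367 CPM (0.47, SE 0.28, FDR 0.89 in the edgeR test).

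S100a4 also rose in tubular cells of rejecting kidneys, in both tubular classes in which it was tested. In proximal tubule-like cells it was at 0.399 and 0.763 CPM in naive, 15.9 and 4.57 CPM in rejecting, and 3.82 and 2.54 CPM in tolerized kidneys. In distal tubule-like cells it was at 0.970 and 0.941 CPM, then 36.3 and 5.04 CPM, then 2.18 and 4.04 CPM, from 3 and 2 UMIs in the naive kidneys. Every transplanted kidney was above every naive kidney in both classes. The levels in transplanted kidneys were far below those of their T cell-like cells, which were at 389 to 1423 CPM. Once cells that held leukocyte RNA were left out, proximal tubule-like cells were at 0.339 and 0.691 raw CPM in naive and 15.7 and 3.74 raw CPM in rejecting kidneys. Of the rejecting kidneys, 474 and 826 of these cells were left. The part of free leukocyte RNA in these levels was not tested. The rise in rejecting kidneys was 4.21 on the log2 scale in proximal tubule-like cells (SE 0.66, FDR 0.00191 in the edgeR test) and 4.39 in distal tubule-like cells (SE 0.97, FDR 0.0102 in the edgeR test), and the ratio of raw rates in the latter was 25.4 with an exact counting interval of 10.5 to 80.3. The former was 3.01 without rejecting kidney 1 and was called under every alternative. In tolerized kidneys the rise was called in proximal tubule-like cells (2.49, SE 0.67, FDR 0.0237 in the edgeR test), where 31.7% of genes were called. It was lost without the cells that held leukocyte RNA (1.88, FDR 0.0559), without naive kidney 1 (2.05, FDR 0.15) or 2 (2.98, FDR 0.0733), and without tolerized kidney 1 (2.17, FDR 0.0825), in the edgeR test. The call in distal tubule-like cells was lost without rejecting kidney 1 (2.36, FDR 0.0791) and without naive kidney 1 (4.39, FDR 0.0846) or 2 (4.36, FDR 0.0672), and it was 5.19 without rejecting kidney 2 (FDR 2.46e-05) and 2.68 without cluster 18 (FDR 0.0116 in the edgeR test). In endothelium-like cells S100a4 was at 196 and 402 CPM in naive, 111 and 337 CPM in rejecting, and 179 and 205 CPM in tolerized kidneys, and the groups overlapped. Within cluster 22 both naive kidneys, at 357 and 688 raw CPM, were above all transplanted kidneys. Rejecting kidneys were at 112 and 342 raw CPM and tolerized kidneys at 186 and 199 raw CPM, and these 2 groups overlapped. The naive cells of cluster 30 were at 11.6 and 20.4 raw CPM. Without cluster 30 S100a4 was called lower in tolerized than in naive kidneys (log2 -1.50, SE 0.45, FDR 0.0459 in the edgeR test), and the value for rejecting kidneys was -1.33 (SE 0.46, FDR 0.0727 in the edgeR test).

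S100a10, whose protein pairs with annexin A2, rose in principal cell-like cells of rejecting kidneys. Its levels were 109.9 and 144 CPM in naive, 258 and 274 CPM in rejecting, and 193 and 143 CPM in tolerized kidneys, and both rejecting kidneys were above all others. The log2 difference from naive kidneys was 1.07 (SE 0.23, FDR 0.00483 in the edgeR test) in rejecting and 0.40 (SE 0.22) in tolerized kidneys, and the former was lost without naive kidney 1 (0.88, FDR 0.0993). In distal tubule-like cells it was at 122 and 124 CPM in naive, 155 and 109 CPM in rejecting, and 79.4 and 73.3 CPM in tolerized kidneys. The tolerized kidneys were the lowest, with a log2 difference from naive kidneys of -0.68 (SE 0.19, FDR 0.0418 in the edgeR test, with 15% of genes called). That call was lost with each naive or tolerized kidney left out in turn (-0.65 to -0.74, FDR 0.137 to 0.183), with doublets kept (-0.49, FDR 0.16), and with at most 20% mitochondrial UMIs per cell (-0.44, FDR 0.402), in the edgeR test. In Ear2 monocyte-like cells S100a10 was at 97.6 and 81.4 CPM in rejecting and 46.0 and 35.8 CPM in tolerized kidneys, apart from each other but not past the test (log2 -1.11, SE 0.27, FDR 0.579 in the edgeR test). In T cell-like cells it was at 771 and 1033 CPM in rejecting and 1171 and 1097 CPM in tolerized kidneys (0.33, SE 0.25).

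S100a11 was present in every class. In proximal tubule-like cells it was at 156 and 183 CPM in naive, 125 and 133 CPM in rejecting, and 119 and 56.4 CPM in tolerized kidneys, and it fell in tolerized compared with naive kidneys (log2 -0.95, SE 0.30, FDR 0.0436 in the edgeR test). Tolerized kidney 2 was the low one, and without it the value was -0.52 (FDR 0.115), against -1.59 without tolerized kidney 1 (FDR 0.00269). The call was also lost without naive kidney 1 (-1.07, FDR 0.102) or 2 (-0.84, FDR 0.186) and without either rejecting kidney (-0.95, FDR 0.0561 each), in the edgeR test. In principal cell-like cells S100a11 was at 706 and 932 CPM in naive, 713 and 669.9 CPM in rejecting, and 619.8 and 476 CPM in tolerized kidneys (tolerized minus naive -0.58, SE 0.24, FDR 0.111 in the edgeR test).

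S100a13, which takes part in the release of Fgf1 and Il1a from cells, fell in principal cell-like cells of tolerized kidneys. Its levels were 94.7 and 133 CPM in naive, 76.6 and 64.1 CPM in rejecting, and 72.3 and 67.1 CPM in tolerized kidneys. All 4 transplanted kidneys were below both naive kidneys, and the log2 difference was -0.71 in tolerized (SE 0.21, FDR 0.0313 in the edgeR test) and -0.71 in rejecting kidneys (SE 0.24, FDR 0.0504 in the edgeR test), so that the same estimate fell on either side of the threshold. The call was lost with DESeq2 (-0.73, FDR 0.0815), with at most 20% mitochondrial UMIs (-0.50, FDR 0.137), and without naive kidney 2 (-0.45, FDR 0.38), tolerized kidney 1 (-0.76, FDR 0.0762), or tolerized kidney 2 (-0.65, FDR 0.149). In endothelium-like cells, its highest class, S100a13 was at 609 and 669 CPM in naive, 577 and 424 CPM in rejecting, and 493 and 563 CPM in tolerized kidneys, and no difference passed with or without cluster 30.

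S100a1, which is best known from striated muscle, fell in proximal tubule-like cells of both transplanted groups. The levels were 432 and 522 CPM in naive, 186 and 199 CPM in rejecting, and 262 and 233 CPM in tolerized kidneys, with no overlap of any 2 groups. The log2 difference from naive kidneys was -1.31 (SE 0.17, FDR 0.000877 in the edgeR test) in rejecting and -0.95 (SE 0.17, FDR 0.00484 in the edgeR test) in tolerized kidneys, and that between tolerized and rejecting kidneys was 0.36 (SE 0.17, FDR 0.483 in the edgeR test). The former was called under every alternative, and the latter call against naive kidneys was lost without naive kidney 2 (-0.81, FDR 0.0537).

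In endothelium-like cells S100a1 was at 377 and 481 CPM in naive, 252 and 171 CPM in rejecting, and 269 and 306 CPM in tolerized kidneys. The fall in rejecting kidneys passed (log2 -1.01, SE 0.27, FDR 0.0345 in the edgeR test, with 14.6% of genes called), and it was lost without naive kidney 1 (-1.19, FDR 0.067), naive kidney 2 (-0.83, FDR 0.185), or rejecting kidney 2 (-0.75, FDR 0.156). It was also lost without cluster 30 (-0.70, FDR 0.117 in the edgeR test), where the naive levels were 288 and 380.0 raw CPM. Where S100a1 was highest no difference passed. Intercalated cell-like cells were at 1168 and 1872 CPM in naive, 2068 and 1974 CPM in rejecting, and 2922 and 1740.1 CPM in tolerized kidneys, and the log2 differences from naive kidneys were 0.42 (SE 0.31) and 0.62 (SE 0.31). Leukocytes held S100a1 too, and more of it without transplantation. Naive T cell-like cells had 123 and 152 raw CPM (8 and 14 UMIs), against 17.7 to 49.3 raw CPM after transplantation. For macrophage-like cells the levels were 170 and 174 against 80.7 to 103 raw CPM. Within each kidney these levels were below those of proximal tubule-like and endothelium-like cells. The source of the leukocyte counts, and its part in the falls in those classes, were not tested.

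S100g was highest in principal cell-like, distal tubule-like, and intercalated cell-like cells, and no difference passed there. The principal cell-like cluster also showed 4 of 7 markers of the distal convoluted and connecting tubule. The intercalated cell-like cluster showed 7 of 8 principal cell markers, and 19.7% of its cells were called doublets and left out. The part of mixed cells in these levels was not tested. Principal cell-like cells were at 16978 and 17229 CPM in naive, 5827 and 13268 CPM in rejecting, and 18426 and 22371 CPM in tolerized kidneys. Both rejecting kidneys were the lowest, but the log2 difference was -0.84 (SE 0.36, FDR 0.12 in the edgeR test) from naive and 1.09 (SE 0.36, FDR 0.338 in the edgeR test) for tolerized minus rejecting kidneys. Distal tubule-like cells were at 7908 and 11856 CPM in naive, 6278 and 10350.0 CPM in rejecting, and 11781 and 11052 CPM in tolerized kidneys, where the tolerized minus rejecting value was 0.46 (SE 0.31, FDR 0.765 in the edgeR test). Intercalated cell-like cells were at 2955 and 3034 CPM in naive, 2389 and 9976 CPM in rejecting, and 5962 and 4880.0 CPM in tolerized kidneys, and the rejecting kidneys spanned the range of the others.

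The S100g calls lay in classes where the gene was low. In proximal tubule-like cells it was at 268 and 295 CPM in naive, 42.9 and 29.7 CPM in rejecting, and 41.6 and 142 CPM in tolerized kidneys. In loop of Henle-like cells it was at 157 and 348 CPM, 47.7 and 37.9 CPM, and 69.1 and 188 CPM, and in endothelium-like cells at 362 and 284 CPM, 34.7 and 21.7 CPM, and 27.5 and 282 CPM. Rejecting kidneys were below naive kidneys in all 3 classes, with log2 differences of -2.95 (SE 0.50, FDR 0.00265), -2.54 (SE 0.45, FDR 0.00175), and -3.45 (SE 0.89, FDR 0.0302), all called in the edgeR test. The value in loop of Henle-like cells was -3.00 without naive kidney 1 and -1.87 without naive kidney 2, both called. Tolerized kidneys were called lower in proximal tubule-like cells (-1.62, SE 0.47, FDR 0.0317 in the edgeR test). That call was lost without naive kidney 1 (-1.70, FDR 0.0898) or 2 (-1.55, FDR 0.118), and its value was -0.99 without tolerized kidney 1 (FDR 0.033) and -2.76 without tolerized kidney 2 (FDR 0.000792). The endothelial call was lost without either naive kidney (-3.29, FDR 0.113, and -3.62, FDR 0.11) or either rejecting kidney (-3.88, FDR 0.128, and -3.20, FDR 0.112), but not without cluster 30 (-3.04, FDR 0.0341 in the edgeR test).

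S100g was counted in leukocytes too, which should lack it. T cell-like cells were at 429 and 446 raw CPM in naive, 102 and 59.4 raw CPM in rejecting, and 80.4 and 337 raw CPM in tolerized kidneys, and B cell-like cells at 470.3 and 383, 96.5 and 67.8, and 93.4 and 364 raw CPM. In each kidney these levels were above those of proximal tubule-like cells, which were 225 and 256, 49.5 and 34.5, and 44.8 and 135 raw CPM, and naive kidneys and tolerized kidney 2 were the high ones in all of them. In no kidney did S100g in proximal tubule-like, loop of Henle-like, or endothelium-like cells exceed its level in T cell-like cells, so that no expression in these 3 classes is read from these values, and their source was not tested.

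**Figure D5:**
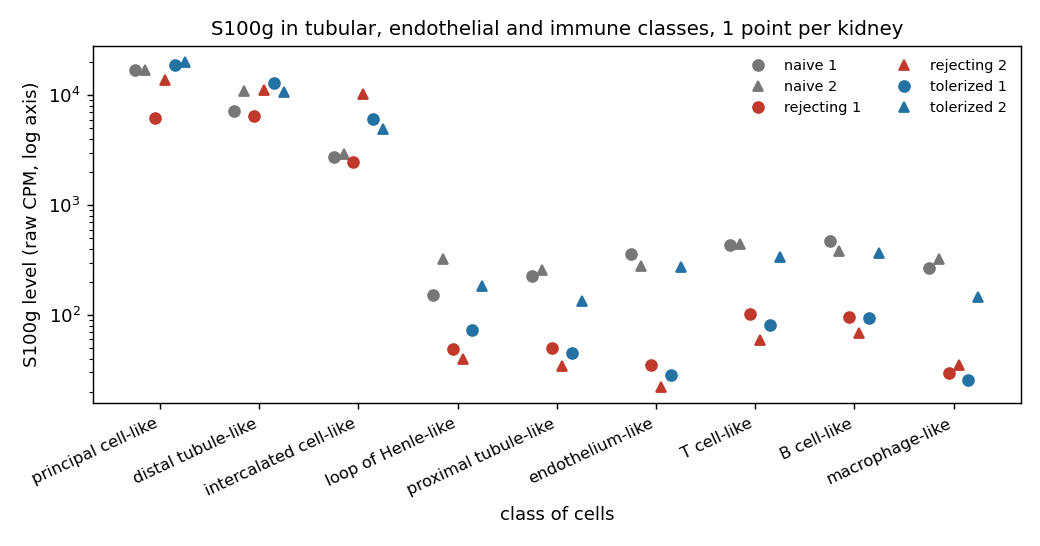
Level of S100g in raw CPM on a log axis in 9 classes, with 1 point for each kidney. Principal cell-like, distal tubule-like, and intercalated cell-like cells lie above 2000 CPM, and in the other 6 classes, immune cells included, naive kidneys (gray) and tolerized kidney 2 (blue triangle) lie above the other transplanted kidneys.

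Likeness among the genes was described by Pearson's r over 18 classes, which share the 6 libraries, of log2 (CPM + 1) averaged over kidneys. S100a8 and S100a9 had the highest r with each other (0.98), S100a4 and S100a6 had an r of 0.82, and S100a1 and S100g one of 0.75. Among 12693 genes, the gene most like S100g was Calb1 (0.977), the other vitamin D-dependent calbindin of the distal nephron. Those most like S100a9 were Ngp and Stfa1 (0.992 each), and Ngp codes for a neutrophil granule protein, whereas the gene most like S100a8 was Scrg1 (0.984). The leading genes for the others were Pomgnt2 for S100a1 (0.963), Tpm4, a tropomyosin, for S100a6 (0.931), Myl12a, a myosin light chain, for S100a13 (0.893), Nmb for S100a10 (0.871), Mb21d1, the DNA sensor cGAS, for S100a4 (0.857), and Capn1, a calpain protease, for S100a11 (0.803).

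Partners of the S100 proteins were followed in 4 lists. Of 13 genes for binding partners, tested in 70 pairs with a kidney class, 25 pairs were higher and 4 lower in rejecting than in naive kidneys (median log2 0.50, where the class medians over all genes ranged from 0.00 to 0.07), and 15 were higher and 4 lower in tolerized kidneys (median 0.21). Over all genes, 22.2% and 17% of pairs were called in these comparisons. Between tolerized and rejecting kidneys 0 of 70 pairs in kidney classes and 0 of 85 in immune classes were called by edgeR, with 17 and 6 pairs at an unadjusted p under 0.05 and 2 and 0 called by DESeq2. Myh9, the non-muscle myosin heavy chain bound by S100A4, rose in 4 tubular classes of rejecting kidneys. In proximal tubule-like cells Myh9 was at 13.6 and 11.8 CPM in naive, 67.4 and 64.8 CPM in rejecting, and 39.2 and 44.8 CPM in tolerized kidneys, with log2 differences from naive kidneys of 2.38 (SE 0.17, FDR 4.64e-05 in the edgeR test) and 1.72 (SE 0.17, FDR 0.000249 in the edgeR test). Sugt1, a co-chaperone that binds S100A6, rose in principal cell-like cells of rejecting kidneys (1.36, SE 0.22, FDR 0.000532 in the edgeR test). Anxa1 fell in principal cell-like cells of tolerized kidneys (-2.09, SE 0.28, FDR 0.00011 in the edgeR test), and Fgf1, the growth factor released with S100A13, fell in their proximal tubule-like cells (-1.42, SE 0.20, FDR 0.0015 in the edgeR test).

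Of 8 genes for receptors and signaling of S100A8 and S100A9, tested in 26 pairs with a kidney class, 4 pairs were higher and 5 lower in rejecting kidneys and 2 were higher and 5 lower in tolerized kidneys, compared with naive kidneys (median log2 -0.25 and -0.08), again against 22.2% and 17% of all pairs. Between tolerized and rejecting kidneys edgeR called 0 of 26 pairs in kidney and 0 of 40 in immune classes, with 5 and 4 at an unadjusted p under 0.05 and 0 and 1 called by DESeq2. The directions were divided by gene. Cd14, the TLR4 co-receptor, rose in principal cell-like cells from 1.42 and 2.42 CPM in naive to 16.7 and 37.7 CPM in rejecting (log2 3.88, SE 0.54, FDR 0.000159 in the edgeR test) and 18.4 and 12.1 CPM in tolerized kidneys (2.91, SE 0.52, FDR 0.00128 in the edgeR test), and in proximal tubule-like cells of rejecting kidneys (3.70, SE 0.59, FDR 0.00205 in the edgeR test). Ly96, the MD-2 subunit of the same receptor, fell in proximal tubule-like cells (rejecting -1.56, SE 0.25, FDR 0.00191, and tolerized -1.68, SE 0.23, FDR 0.00148, in the edgeR test). Cd36, a fatty acid and scavenger receptor, fell in proximal tubule-like cells from 272 and 312 CPM in naive to 55.8 and 63.0 CPM in rejecting and 72.3 and 63.2 CPM in tolerized kidneys (log2 -2.30, SE 0.17, FDR 5.6e-05, and -2.11, SE 0.17, FDR 9e-05, in the edgeR test).

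Of 10 genes for calcium transport in the distal nephron, tested in 48 pairs with a kidney class, 7 pairs were higher and 11 lower in rejecting than in naive kidneys, and 7 were higher and 4 lower in tolerized kidneys (median log2 -0.04 and 0.16), with the same 22.2% and 17% called over all pairs. Between tolerized and rejecting kidneys 1 of 48 pairs was called, and in immune classes 0 of 42 by edgeR, with 12 at an unadjusted p under 0.05 and 1 called by DESeq2. Trpv6, an entry channel for calcium, was the called gene, in principal cell-like cells, where S100g was also high. Its levels were 11.4 and 13.6 CPM in naive, 45.0 and 52.8 CPM in rejecting, and 21.5 and 18.6 CPM in tolerized kidneys. All 3 groups were apart, with log2 values of 1.99 (SE 0.28, FDR 0.000187 in the edgeR test) for rejecting minus naive and -1.32 (SE 0.25, FDR 0.0487 in the edgeR test) for tolerized minus rejecting kidneys. Slc8a1, the sodium-calcium exchanger, rose in the same class from 18 and 7.27 CPM in naive to 80.0 and 82.9 CPM in rejecting and 62.2 and 148 CPM in tolerized kidneys (log2 2.68, SE 0.44, FDR 0.000681, and 3.07, SE 0.41, FDR 0.0001, in the edgeR test). Principal cell-like cells also showed markers of the distal convoluted and connecting tubule, and the part of mixed cells was not tested. Vdr, the vitamin D receptor, fell in loop of Henle-like cells of rejecting kidneys (-1.62, SE 0.26, FDR 0.000891 in the edgeR test).

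Of 7 other S100 genes that the matrices held, 2 passed the filter on low counts in kidney classes. S100a16 fell in endothelium-like cells, from 668 and 691 CPM in naive to 338 and 245 CPM in rejecting and 293 and 404 CPM in tolerized kidneys (log2 -1.21, SE 0.27, FDR 0.0164, and -0.97, SE 0.26, FDR 0.0405, in the edgeR test), where both calls also passed without cluster 30 (-1.28, FDR 0.011, and -1.03, FDR 0.0258, in the edgeR test), and in proximal tubule-like cells (-0.69, SE 0.19, FDR 0.0198, and -0.63, SE 0.19, FDR 0.0335, in the edgeR test). Between tolerized and rejecting kidneys 0 of 7 pairs in kidney classes and 0 of 2 in immune classes were called by edgeR, with 0 at an unadjusted p under 0.05 and 0 called by DESeq2.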

How the data were processed

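The authors deposited raw UMI counts per gene and barcode for 6 kidneys, made with Cell Ranger on mm10 and not normalized. The headers name a version for transplanted kidneys only, and 28692 genes were listed for naive and 31053 for transplanted kidneys. Barcodes below 500 UMIs or 250 genes or above 50% mitochondrial UMIs were dropped, and Scrublet doublets (0.8% per 1000 barcodes) were left out. Clustering (scanpy 1.11.5, 2500 variable genes without S100 genes, 40 principal components, 20 neighbors, Leiden resolution 1.5) gave 41 clusters, of which 38 were named from markers. Counts were summed per kidney and class (at least 20 cells in each kidney), filtered with filterByExpr, scaled by TMM, and tested with edgeR 4.0.16 (quasi-likelihood) on 4 kidneys for immune and 6 for kidney classes. Tests were checked on simulated data with a single fixed spread between kidneys, in which only well-counted genes were changed. Changes at low counts or with a wide spread were not covered by that check. The members, gene lists, and rules were chosen with earlier results of these data known. Named genes were the 9 members, the leading genes by likeness, and up to 5 genes per list and comparison with the lowest FDR. Alternatives were DESeq2 1.42.0, its size factors, genes tested without a filter, a replicate block, doublets included, at least 1000 UMIs, at most 20% mitochondrial UMIs, Leiden resolution 0.8, macrophages and monocytes as 1 class, cells without leukocyte RNA, and each kidney left out. Leaving out cluster 2, 18, or 30 was chosen after seeing the data. Coordinates are those of GRCm38.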

Additional observations from a re-analysis of the deposited data

Results flagged for a closer look

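S100a6 was also high in a cluster that the comparisons left out because its markers named no class. This cluster, number 32, is led by Npy, Cryab, Fst, and Aqp1 and held 62 and 36 cells of naive, 22 and 19 of rejecting, and 30 and 24 of tolerized kidneys. S100a6 was at 5069 and 1328 raw CPM in its rejecting cells and at 1384 and 1713 raw CPM in its tolerized cells, whereas the naive kidneys, the controls, were at 305 and 148 raw CPM. All 4 transplanted kidneys were above both naive kidneys, and the difference was not tested.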

How the results depend on the processing

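The 22 called pairs of an S100 gene and a class kept their direction under every alternative run, 6 were called under all of them, and 16 lost the call under at least 1. The counts of calls depended on the processing. Between tolerized and rejecting kidneys, the 0 calls in immune classes became 2 with DESeq2, 13 with no filter on low counts, and 1 with doublets kept, and 0 to 9 with a kidney left out. The 1 call in kidney classes became 0 with DESeq2, 14 with no filter on low counts, 2 with doublets kept, 0 with at most 20% mitochondrial UMIs, 2 without cluster 18, and 0 to 7 with a kidney left out. The 13 calls between rejecting and naive kidneys became 22 with no filter on low counts and 8 to 17 with a kidney left out, and the 8 calls between tolerized and naive kidneys became 20 and 0 to 11. With no filter, genes with few UMIs entered the fit, and the cause was not tested. A fit with 1 kidney in a group assumes that it varies like the others. Same-numbered kidneys did not deviate from their group means together (r -0.24 to 0.13 over classes). The study colored its kidneys by experiment, but no source used here ties a number to an experiment, so that the numbers were not taken as pairs. With a replicate block the counts were 2, 3, 13, and 11 in the order above. Between tolerized and rejecting kidneys this fit called S100a4 (log2 1.26, FDR 0.000839) and S100g (1.24, FDR 0.00286) in Chil3 monocyte-like cells and S100a6 (-1.90, FDR 0.00693) and S100g (1.40, FDR 0.0316) in loop of Henle-like cells, beside S100a6 in principal cell-like cells (-3.40, FDR 0.00387), all by edgeR. Over 42 single values and 672 refits, 588 kept their direction and side of the threshold, 53 lost the call, 27 gained it, and 4 changed sign. Those 4 lay in endothelium-like cells and passed neither before nor after. S100a4 in rejecting against naive kidneys (-0.47) was 0.27 without cells holding leukocyte RNA, 0.14 without naive kidney 2, and 0.18 without rejecting kidney 1 (-1.42 to 0.18 with a kidney left out), and S100a6 in tolerized against naive kidneys (0.43) was -0.07 without cluster 30. The levels across classes moved by less than the spread between kidneys with raw CPM. At a Leiden resolution of 0.8 both monocyte classes merged and gave no separate value. Few cells limit neutrophil-like and principal cell-like values.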

Other observations

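Mast cell or basophil-like cells were left out of the tests because they were few, at 41 and 27 cells in rejecting and 37 and 4 in tolerized kidneys. They were rich in S100a10, at 1550.2, 1342, and 1306 raw CPM in the 3 kidneys with at least 20 of these cells, and in S100a11, at 1199, 984, and 973 raw CPM. S100a6 was at 1697, 1035, and 904 raw CPM in the same kidneys.

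Cycling cells, which mix several types, had S100a4 at 191 and 394 raw CPM in rejecting and at 867 and 789 raw CPM in tolerized kidneys, and both tolerized kidneys were above both rejecting kidneys. Naive kidney 2 was at 88.6 raw CPM. This difference was not tested.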
